A study of Homo sapiens with 5 samples.

Results

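Mucosal surfaces secrete proteins that starve, lyse or mark microbes and that keep the proteases of inflammation in check. Lipocalin 2 binds the iron carriers of bacteria, WAP domain proteins inhibit neutrophil elastase, serum amyloid A proteins are acute phase proteins, beta-defensins damage microbial membranes, and complement coats microbes and starts their clearance. Squamous epithelia such as that of the esophagus make several of these proteins when inflammatory cytokines reach them, and carcinomas that arise from such epithelia can make them too. A set of 10 genes of this kind, picked by gene name, was followed in a human esophageal squamous cell carcinoma (ESCC) line that was growing in mouse lungs. The set holds LCN2, SLPI, PI3, WFDC2, SAA1, SAA2, DEFB4A, RARRES1, CFB and C3, which are 10 of the 33538 genes of the count matrices, and each had at least 1 count in some library.

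KYSE30-Luc-GFP is an established human ESCC line that carries luciferase and green fluorescent protein (GFP) from a lentivirus. It was sampled as the parental culture, and as GFP-sorted cells of lungs. Lungs were taken 6 h and 48 h, and then 2 and 4 months, after tail-vein injection of the line into NOD SCID mice of either sex, aged 4 to 5 weeks. NOD SCID mice lack functional T and B cells but keep neutrophils and macrophages. The lungs came from 3 mice (6 h), 16 (48 h), 6 (2 months) and 1 (4 months), mouse cells were removed with beads before the sort, and pooled mice gave 1 library, so that each of the 5 timepoints is 1 library with no replicate. Differences below are therefore differences between libraries, with no test between timepoints, and all intervals are exact 95% intervals that cover counting error only, Poisson for summed counts and binomial (Clopper-Pearson) for shares of cells.

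Cells with 200 to 8000 genes, at least 1000 unique molecular identifiers (UMIs, each marking 1 captured RNA molecule) and at most 15% mitochondrial UMIs were kept, which left 9059 parental cells, 1957 (6 h), 1149 (48 h), 3322 (2 months) and 4499 (4 months). Median UMIs per cell lay between 12979 at 6 h and 39076 at 48 h. Of the 19986 cells, 398 carried 1 of the 198 barcodes that occurred in more than 1 library. The squamous epithelium markers, 8 genes such as TP63, KRT5 and KRT17, summed to 164 CPM in parental cells, 1543 (6 h), 1053 (48 h), 8970 (2 months) and 19482 (4 months), where CPM is the summed count of a gene per 1000000 UMIs of the kept cells. In the parental library 4 of the 8 reached 5 CPM and the squamous keratins KRT5, KRT14 and KRT17 were below 1 CPM, so that the culture held little of the markers that define its labelled type. KRT5 and KRT17 reached 556 and 4353 CPM at 2 months and 1749 and 10139 CPM at 4 months, in the same libraries in which SLPI, LCN2 and PI3 were high, and their part in the results was not tested. The summed CPM of 7 fibroblast markers lay between 2.37 and 13.6, of 8 immune cell markers between 1.76 and 16.9, of 7 lung epithelium markers between 0.981 and 5.80, and of 5 endothelial and 3 erythrocyte markers below 1 in every library. SFTPA1 was at 0 in every library and PTPRC at 6 h and 2 months, but other genes of their lists were not. The lung epithelium marker SCGB1A1 had 0 UMIs in parental cells and 4.71 CPM at 2 months. The immune cell marker CD68 had 3.11 CPM in parental cells, 16.4 (6 h) and 11.2 (48 h). At 6 h, 3 barcodes with 1102 to 1689 UMIs stood apart. They held 560 of the 570 LYZ UMIs, all 305 BPIFA1 UMIs and 346 of 356 STATH UMIs of that library, genes of secretions of the airways and salivary glands, with 1 UMI of CD44 and 0 of TM4SF1. Member values at 6 h that rest on these 3 barcodes are given with and without them.

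Several of the genes are neighbours. PI3 (chr20:45174902-45176544), SLPI (chr20:45252239-45254564) and WFDC2 (chr20:45469753-45481532) are protein-coding genes within 307 kb of chromosome 20, where the WAP domain family is clustered, and SAA2 (chr11:18239223-18248668) and SAA1 (chr11:18266260-18269977) lie 17.6 kb apart on chromosome 11 (GRCh38, GENCODE 44, matched by gene identifier). LCN2 lies at chr9:128149071-128153453. RefSeq start-site sequences (GRCh38.p14) were at hand for 4 of the 10 members, LCN2, WFDC2, RARRES1 and CFB. The RefSeq starts of LCN2 and CFB lie inside their GENCODE gene spans, which begin further upstream, so that the LCN2 bases shown fall within the span given above. Those of LCN2, whose level changed most among these 4, and of WFDC2, the WAP gene that lagged behind its neighbours, are shown as the 188 bases before the RefSeq start, on the plus strand, at chr9:128149265-128149452 and chr20:45469565-45469752.
LCN2: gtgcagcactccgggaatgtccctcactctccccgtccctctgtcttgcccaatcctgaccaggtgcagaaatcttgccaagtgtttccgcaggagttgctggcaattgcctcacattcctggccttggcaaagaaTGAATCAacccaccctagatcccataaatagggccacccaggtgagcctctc
WFDC2: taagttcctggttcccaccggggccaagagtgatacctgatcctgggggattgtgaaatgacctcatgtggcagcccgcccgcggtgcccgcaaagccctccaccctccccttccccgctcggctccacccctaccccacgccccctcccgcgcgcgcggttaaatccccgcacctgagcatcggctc
Capitals mark matches to 3 motifs that were searched on both strands of the 250 bases before each start, AP-1 (TGANTCA), ETS (CGGAAGT) and the TATA box (TATAAA), which do not overlap one another. LCN2 held an AP-1 match that begins 52 bases before the start, as letters that 6.57% of all 35116 promoters of the table hold. WFDC2 and RARRES1 held none of the 3, and CFB held the TATA letters 30 bases before its start, which 10.7% of promoters hold, while 5.69% hold the ETS letters. A match is a run of letters and not a measured binding site.

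SLPI, LCN2 and PI3 were nearly silent in culture and at 48 h and were above 10 CPM in the cells that had grown in the lungs for months. The level of SLPI, the secretory leukocyte protease inhibitor, was 0.181 CPM in parental cells, 8.27 (6 h), 0.171 (48 h), 280 (2 months) and 482 (4 months). The parental and 48-h libraries were low, both late libraries were high, and the 6-h library lay between them. The ratio of 48 h to parental cells was 0.947 (0.381 to 2.07) for SLPI and 0.313 (0.00740 to 2.06) for LCN2, so that these neighbours in the order did not differ beyond counting error. The 2-month level was 1550 times the parental one (95% interval 1124 to 2202) and the 4-month level 2668 times (1936 to 3790). The ratios to the parental library given here take all kept cells. The make-up of these cells by the signature genes of the study differed between libraries, as given below. From 2 to 4 months the SLPI level differed by a factor of 1.72 (1.70 to 1.75), less than 2-fold.

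LCN2, which captures siderophores, had 0.0683 CPM in parental cells, 1.84 (6 h), 0.0214 (48 h), 29.1 (2 months) and 105 (4 months). It followed the order of SLPI over the 5 libraries at a lower level. The ratio to the parental library was 426 (254 to 781) at 2 months and 1542 (919 to 2821) at 4 months, and the 4-month level was 3.62 times (3.46 to 3.78) the 2-month level. PI3, the elastase inhibitor elafin, had 1 parental UMI, 1 at 6 h (0 without the 3 barcodes) and 2 at 48 h, against 1084 at 2 months and 6234 at 4 months, or 13.4 and 49.7 CPM. These UMI numbers leave the first 3 libraries without a level of PI3 that can be told from background. The 2-month ratio to parental of 2746 has an interval from 492 to 108540, since it rests on 1 parental UMI, whereas the ratio of 4 to 2 months was 3.71 (3.48 to 3.96).

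WFDC2, also known as HE4 and the third WAP gene of the set, stayed low until 4 months. Its level was 0.112 CPM in parental cells, 1.14 (6 h), 0.0214 (48 h), 0.445 (2 months) and 4.22 (4 months). The 4-month library was 37.6 times (24.8 to 59.9) above the parental one and 9.49 times (6.77 to 13.7) above the 2-month one. Of the 10 other protein-coding genes that lie between PI3 and WFDC2, 4 reached 5 CPM at 4 months. They were SDC4, SYS1, DBNDD2 and PIGT, named after their values were seen, and 1 of them, SDC4, was 2-fold or more above the parental library, with 8.76 CPM in parental cells, 228 (6 h), 357 (48 h), 63.8 (2 months) and 130 (4 months). SDC4, a cell surface proteoglycan, was thus highest at 48 h, when the 3 WAP genes around it were near 0. DBNDD2 had 109 CPM in parental cells, 1.97 (6 h), 2.52 (48 h), 59.9 (2 months) and 45.4 (4 months), and MATN4, the neighbour of SLPI, stayed between 0.430 and 1.72 CPM.

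SAA1, an acute phase protein of serum that epithelia also make, came up at 4 months. It had 0 UMIs in the parental library, where a count of 0 allows up to 0.0146 CPM, then 0.154 CPM (6 h), 0.834 (48 h), 0.445 (2 months) and 7.17 (4 months). SAA1 was higher at 48 h than at 2 months, unlike SLPI, LCN2 and PI3, with a ratio of 2 months to 48 h of 0.534 (0.330 to 0.862). Its UMIs lay in 19 cells at 48 h and 14 at 2 months, with up to 8 and 10 in 1 cell. The interval does not cover this clustering. The 4-month level was 490 times the level of 3 counts in the parental library. The 95% interval of its ratio to the parental library had a lower limit of 398. It was 16.1 times (11.6 to 23.2) the 2-month level. SAA2 had 0 UMIs in the parental library, 1 (6 h, 0 without the 3 barcodes), 5 (48 h), 0 (2 months) and 38 (4 months), with most of its UMIs in the 2 libraries in which SAA1 was highest. At 4 months 15 of the 23 SAA2-positive cells also had SAA1, which was found in 4.58% of all cells of the library. The canonical transcripts of SAA1 and SAA2 are identical at 95.4% of 518 aligned bases, so reads of one may have been counted for the other or dropped as ambiguous.

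DEFB4A, a beta-defensin of inflamed skin and airway, had 0, 1, 1, 0 and 7 UMIs in the parental, 6-h, 48-h, 2-month and 4-month libraries, and the 7 UMIs lay in 3 cells. Its transcript is 99.7% identical to that of DEFB4B, so that reads of the pair can hardly be assigned to either gene, and a low count of DEFB4A does not show that the protein is absent. RARRES1, a gene induced by retinoids, had 53 UMIs in parental cells, 3 (6 h), 4 (48 h), 24 (2 months) and 13 (4 months), never more than 1 in a cell. It was the only member whose 4-month level was below the parental one with an interval that leaves out 1, at a ratio of 0.401 (0.200 to 0.745). At 2 months the ratio was 1.15 (0.677 to 1.89), so that no difference of RARRES1 from parental cells was detectable at 2 months. Of its 53 parental UMIs, 52 lay in cells negative for the study's signature genes. The level in positive cells alone is given below.

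The complement genes were near the detection limit throughout. CFB, the serine protease of the alternative pathway, had 6, 3, 7, 5 and 10 UMIs in the 5 libraries in order of time. C3, the central complement protein, had 27 UMIs in parental cells, 25 (6 h), 10 (48 h), 29 (2 months) and 91 (4 months), which is 0.132, 0.768, 0.214, 0.359 and 0.725 CPM. The parental level of C3 was the lowest of the 5, and the 6-h and 4-month levels were 5.83 times (3.24 to 10.4) and 5.50 times (3.55 to 8.80) above it, at less than 1 CPM.

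**Figure D1:**
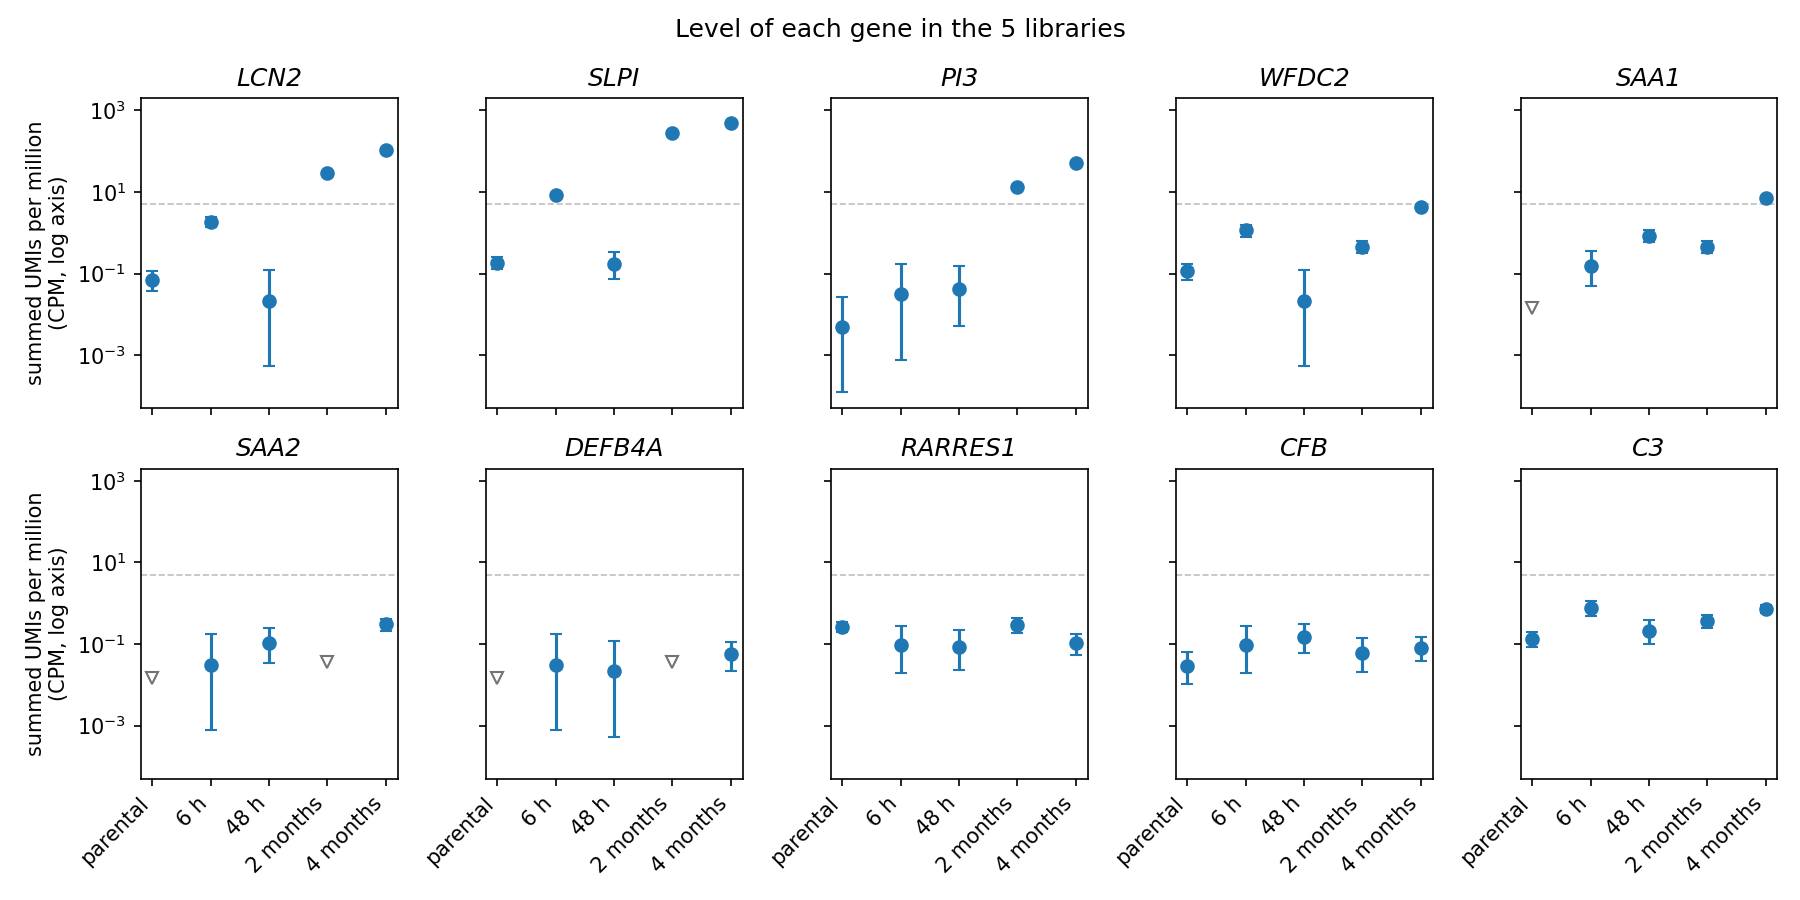
Level of each of the 10 genes as summed UMIs over all kept cells (CPM, log axis) in the 5 libraries, with exact 95% Poisson intervals; open triangles mark the level of 3 counts where a library had 0, and the dashed line marks 5 CPM. SLPI, LCN2 and PI3 lie above 10 CPM in both late libraries, SAA1 and WFDC2 come up at 4 months, and the other 5 genes stay below 1 CPM in all libraries.

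To set the members against the other genes, log2 ratios of CPM with 1 CPM added were taken over every gene that reached 5 CPM in either library, and a gene was counted as higher from 2-fold on. At 2 months 3 of the 10 members were tested, SLPI, LCN2 and PI3, and 3 were higher than in parental cells, while 10.4% of the 10733 genes tested were. At 4 months SAA1 joined them and 4 of 4 tested members were higher, against 13.4% of 10843 genes. These members passed the 5 CPM filter only through the library in which they were high and so had to differ, and the counts are a description. The log2 ratios at 4 months were 8.68 for SLPI, 6.64 for LCN2, 5.66 for PI3 and 3.03 for SAA1, where the median of all genes tested was -0.44. At 48 h no member reached 5 CPM in either library, while 19.7% of 10961 genes were 2-fold higher than in parental cells. From 48 h to 2 months SLPI, LCN2 and PI3 were the 3 members tested and higher, against 12.2% of all genes. These 3 passed the filter only through the 2-month library and had to differ. Between the late libraries, LCN2, PI3 and SAA1 were the 3 of 4 tested members that were 2-fold or more higher at 4 months, against 3.03% of 10082 genes. SAA1, at 0.445 CPM at 2 months, passed the filter only through the 4-month library and had to differ. SLPI was the fourth with a log2 ratio of 0.78, beside a median of -0.24 over all genes. With median-of-ratios size factors, which move that median to 0.12, SLPI at 1.15 and WFDC2 at 2.10 on the log2 scale also passed. WFDC2, like SAA1, entered only through the 4-month library. No tested member was 2-fold lower in any of these comparisons. Those tested against parental cells or the 48-h library had passed the filter only through the higher library and could not be lower. Only SLPI, LCN2 and PI3 between the late libraries could have been. Among all genes tested, 27.8% (6 h), 24.2% (48 h), 11.5% (2 months) and 30.0% (4 months) were lower than in parental cells, 13.0% were lower at 2 months than at 48 h, and 9.38% lower at 4 months than at 2 months.

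At 6 h SLPI was the 1 member tested and was higher than in parental cells, by 2.97 on the log2 scale, where 17.2% of all genes were higher. It passed the 5 CPM filter only through the 6-h library and so had to differ. Of the 269 SLPI UMIs of that library, 146 lay in the 3 barcodes rich in LYZ, BPIFA1 and STATH, as did 24 of the 37 WFDC2 UMIs and 0 of the 60 LCN2 UMIs. Without these barcodes SLPI stood at 3.78 CPM in 34 positive cells, under the 5 CPM filter, and WFDC2 at 0.400 CPM. LCN2 remained at 1.84 CPM in 29 cells, which is 27.0 times (14.9 to 52.3) the parental level.

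The shares of cells with at least 1 UMI of SLPI, LCN2 and PI3 were also highest in the late libraries. SLPI was found in 0.210% of parental cells, 1.89% of cells (6 h, 1.74% without the 3 barcodes), 0.522% (48 h), 47.1% (2 months, interval 45.4 to 48.9) and 59.5% (4 months, 58.0 to 60.9). LCN2 was found in 0.155%, 1.48%, 0.0870%, 14.8% and 20.1% of cells in the same order, and PI3 in 2.68% at 2 months and 10.7% at 4 months. In both late libraries SLPI was thus found in more cells than any other member, and PI3 in the fewest of these 3. WFDC2 was found in 0.963% of cells at 2 months and 5.60% at 4 months. SAA1 was found in 1.65% of cells at 48 h, 0.421% at 2 months and 4.58% at 4 months.

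Because the share rises with depth, each cell was also thinned to 1000 UMIs. SLPI then remained in 19.6% of cells at 2 months (18.3 to 21.0) and 21.8% at 4 months (20.6 to 23.1), and the intervals of the late libraries overlap at that depth. LCN2 remained in 2.92% and 4.93% of cells and PI3 in 0.662% and 2.38%, and for both the intervals of the late libraries did not overlap. SAA1 remained in 0.0870% (0.00220 to 0.484) of cells at 48 h and 0.0903% (0.0186 to 0.264) at 2 months. Its higher share at 48 h was thus not kept at that depth. UMIs per positive cell at full depth were 14.5 and 22.6 for SLPI, 4.79 and 14.6 for LCN2, and 12.2 and 13.0 for PI3 at 2 and 4 months, beside median depths of 21864.5 and 27559 UMIs.

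**Figure D2:**
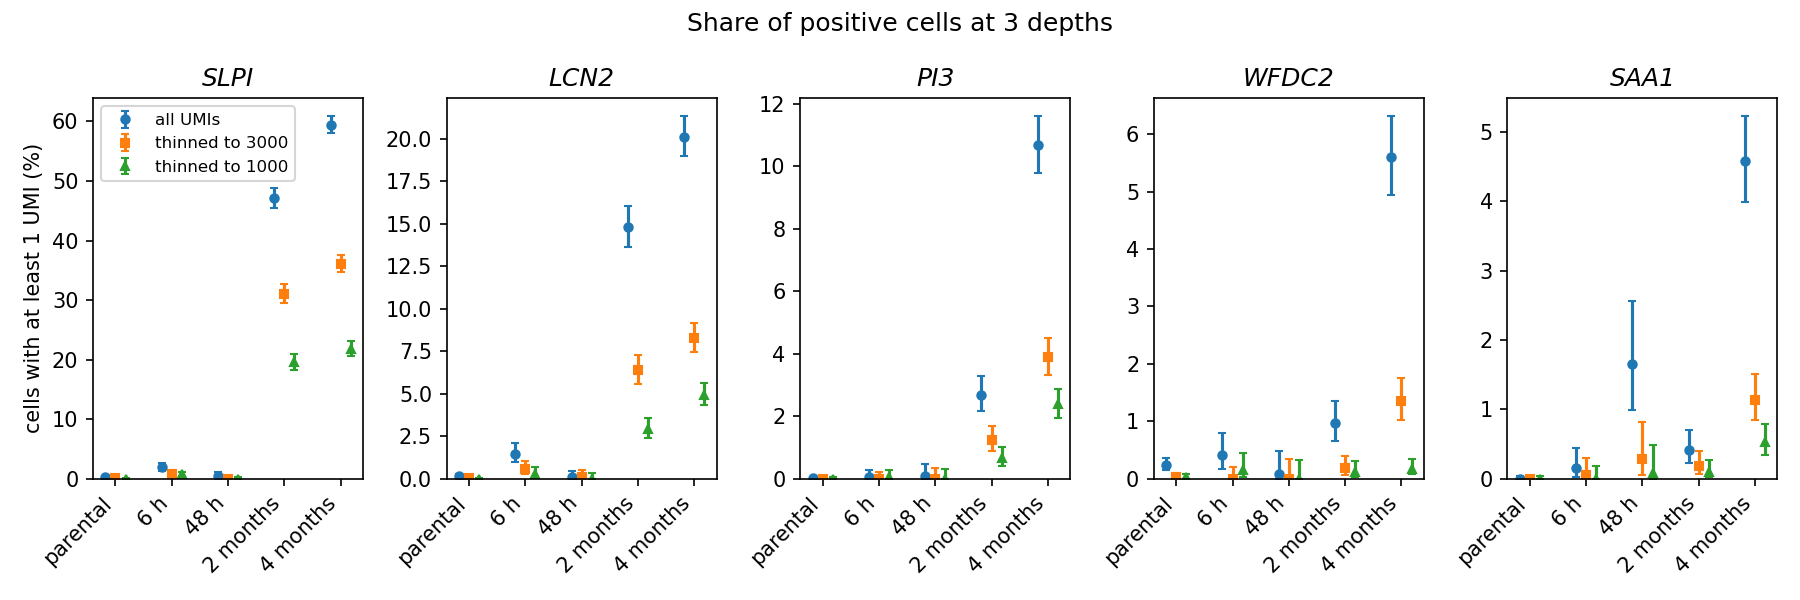
Share of cells with at least 1 UMI (%) of SLPI, LCN2, PI3, WFDC2 and SAA1 in the 5 libraries, from all UMIs and after thinning each cell to 3000 or 1000 UMIs, with exact 95% binomial intervals and a separate y axis for each gene. All 5 genes are highest at 4 months at full depth, and SLPI at 1000 UMIs is nearly level between 2 months (19.6%) and 4 months (21.8%).

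Within the late libraries the transcripts were concentrated in few cells. At 4 months the 1% of cells richest in each gene, 45 cells, held 24.9% of the SLPI UMIs, 54.4% of the LCN2 UMIs, 74.0% of the PI3 UMIs and 73.0% of the SAA1 UMIs. The most loaded cells carried 1174 UMIs of SLPI, 1006 of LCN2 and 672 of PI3. Ranked instead by their fraction of UMIs, the 45 cells highest in SLPI included 16 of the 45 highest in PI3 and 8 of the 45 highest in LCN2, and 7 cells were shared between the top cells of LCN2 and PI3. Most top LCN2 cells were thus not top PI3 cells, but each set is only 1% of the library, and the overlap was not compared with that of unrelated sets. At 2 months the corresponding numbers among 34 cells were 13 for SLPI with PI3, 5 for SLPI with LCN2 and 2 for LCN2 with PI3. Ranked by fraction, the top SLPI cells had a median of 20009 UMIs and the top LCN2 cells 20203, against 27559 over all cells at 4 months. Such a ranking favours cells of low depth. These medians therefore do not describe the cells richest by count, whose depth was not compared.

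The members were next compared within cells thinned to 3000 UMIs, as a description of the cells of 1 library, which share that library. At 2 months SLPI was found in 88.8% of LCN2-positive cells and 27.1% of LCN2-negative cells, with a Pearson r of 0.39 across 3234 cells. At 4 months SLPI was found in 85.7% of LCN2-positive and 31.6% of LCN2-negative cells (r of 0.43 across 4218 cells). SLPI was therefore found in most cells with LCN2, in both late libraries. Many SLPI-positive cells had no LCN2 UMI at this depth. At 2 months LCN2 was found in 18.2% of SLPI-positive cells at 3000 UMIs and in 29.9% from all UMIs, so that the share depends on depth. The 2-month cells also include signature-negative ones, described below, which held little SLPI or LCN2. The part of this mixture was not tested. PI3 behaved alike toward SLPI, which was found in 97.5% of PI3-positive cells at 2 months and in 89.0% of PI3-positive against 34.0% of PI3-negative cells at 4 months. LCN2 and PI3 were also found together, in fewer cells. At 4 months LCN2 was found in 43.3% of PI3-positive and 6.88% of PI3-negative cells with an r of 0.33, and at 2 months in 17.5% (7.34 to 32.8) of PI3-positive and 6.23% (5.42 to 7.13) of PI3-negative cells with an r of 0.02.

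The shares of LCN2 and PI3 rose with the amount of SLPI in the cell. At 2 months LCN2 was found in 1.03% of cells without SLPI, 10.5% of cells with 1 to 2 SLPI UMIs, 23.2% with 3 to 9 and 41.9% with 10 or more. At 4 months the LCN2 shares were 1.86%, 9.68%, 24.0% and 56.1%, and the PI3 shares were 0.668%, 2.85%, 10.7% and 40.6%. The intervals of neighbouring bins did not overlap for LCN2 in either library or for PI3 at 4 months. SAA1 did not share this gradient, with 1.15% of cells without SLPI and 2.58% (0.708 to 6.48) of the 155 cells with 10 or more SLPI UMIs at 4 months.

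**Figure D3:**
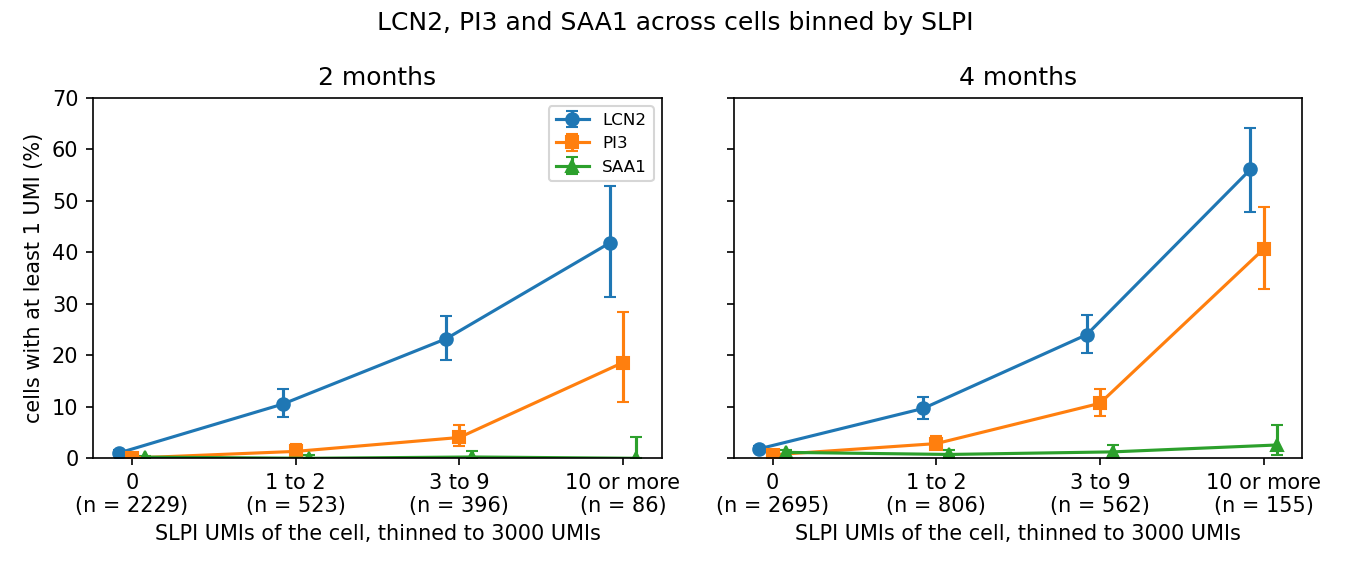
Share of cells with at least 1 UMI (%) of LCN2, PI3 and SAA1 in cells of the 2-month and 4-month libraries, grouped by their number of SLPI UMIs after thinning to 3000 UMIs, with exact 95% binomial intervals and the number of cells under each group. LCN2 and PI3 climb from the cells without SLPI to those with 10 or more UMIs, to 56.1% and 40.6% at 4 months, while SAA1 stays below 3%.

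SAA1 and SLPI were not detectably linked. At 4 months SLPI was found in 35.4% (22.2 to 50.5) of the 48 SAA1-positive cells and 36.1% of the SAA1-negative ones, a difference that is not detectable at this depth. From all UMIs SAA1 was found in 8.54% (6.20 to 11.4) of PI3-positive and 4.11% (3.51 to 4.77) of PI3-negative cells. Thinned to 3000 UMIs, these shares were 1.22% (0.148 to 4.34) and 1.13% (0.832 to 1.51), so no difference was detectable at that depth. From all UMIs SAA1 was also found in 12 of the 60 C3-positive cells (10.8 to 32.3%) and 4.37% of C3-negative cells. The median depth was 36744 UMIs in SAA1-positive and 27238 in SAA1-negative cells. WFDC2 lay between, as SLPI was found in 54.4% (40.7 to 67.6) of the 57 WFDC2-positive cells and 35.9% of the others, and LCN2 in 24.6% against 8.07%. C3, although sparse, was found in cells with the other members. From all UMIs, 40 of the 60 C3-positive cells at 4 months held LCN2 (66.7%, 53.3 to 78.3) against 19.5% of the C3-negative cells, and 52 of them held SLPI. The median depth of the C3-positive cells was 30019 UMIs and that of the others 27511. At 2 months 13 of 27 C3-positive cells held LCN2, against 14.5% of the others. Cells with 2 or more of the 10 members made up 0.0110% of parental cells, 0.869% (6 h, 0.716% without the 3 barcodes), 0.174% (48 h), 16.4% (2 months) and 27.1% (4 months), and 13 cells at 4 months held 5 members.

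The study defines a signature of 7 genes in 2 groups for cells that initiate metastasis, none of them a member, and a cell is positive here with at least 1 UMI of each group. At 2 months, when 2716 cells were positive and 606 negative, SLPI, LCN2 and PI3 were almost wholly on the positive side. SLPI stood at 382 CPM in signature-positive cells and 1.38 CPM in the negative ones, a ratio of 277 (194 to 411), and was found in 57.0% and 2.81% of them. LCN2 stood at 39.7 and 0.276 CPM, a ratio of 144 (66.1 to 393), and was found in 17.9% and 0.990% of cells. All 1084 PI3 UMIs and all 36 SAA1 UMIs lay in positive cells. Those of SAA1 lay in only 14 cells. The shares of cells with SAA1, 0.515% (0.282 to 0.863) of positive and 0% (0 to 0.607) of negative cells, had overlapping intervals. The negative cells were the deeper ones, with a median of 37140 UMIs against 19416, and the part of stray RNA in these shares was not tested. The squamous keratin KRT17 moved with the split, at 5937 CPM in positive and 47.7 CPM in negative cells, and its part in the difference was not tested. RARRES1 did not follow, with 15 UMIs in positive and 9 in negative cells, a ratio of 0.613 (0.251 to 1.59).

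The split was not alike in all libraries. Positive cells made up 14.5% of the parental library, 98.2% (6 h), 95.6% (48 h), 81.8% (2 months) and 99.2% (4 months). Ratios of a lung library to the parental one over all cells therefore also compare cells of different make-up, and its part was not tested. In positive cells alone, SLPI stood at 0.759 CPM in culture, 382 at 2 months and 482 at 4 months. LCN2 stood at 0.158 in culture and 1.85 at 6 h, and C3 at 0.380 in culture and 0.726 at 4 months. At 6 h SLPI stood at 3.61 CPM in the 1922 positive and 1067 CPM in the 35 negative cells, and WFDC2 at 0.0926 and 239 CPM, and the 32 negative cells left without the 3 barcodes held 6 SLPI and 10 WFDC2 UMIs. At 48 h the 50 negative cells held no SLPI UMI, where 3 counts would be 29.9 CPM, against 0.171 CPM in positive cells. At 4 months SLPI stood at 482 CPM in 4465 positive and 158 CPM in 34 negative cells with a median of 1490 UMIs, a ratio of 3.05 (1.66 to 6.36). In culture, SLPI and C3 were higher in signature-positive cells. In the parental library, 24 SLPI UMIs fell in the 1310 signature-positive cells and 13 in the 7749 negative ones, which is 0.759 against 0.0750 CPM, a ratio of 10.1 (4.95 to 21.6). The SLPI UMIs of the positive cells lay in 8 cells, and 1 parental cell held 10 of the library's 37. C3 was 4.39 times (1.87 to 10.0) higher in the positive cells. RARRES1 went the other way, with 1 UMI in positive cells and 52 in negative cells, a ratio of 0.105 (0.00262 to 0.614). In positive cells alone RARRES1 stood at 0.0316 CPM (0.000801 to 0.176) in culture and 0.104 CPM (0.0552 to 0.177) at 4 months. These intervals overlap, so the lower 4-month level over all cells was not seen within positive cells. For LCN2 the parental ratio of 3.05 had an interval from 0.802 to 10.1, so a difference was not detectable at this depth.

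**Figure D4:**
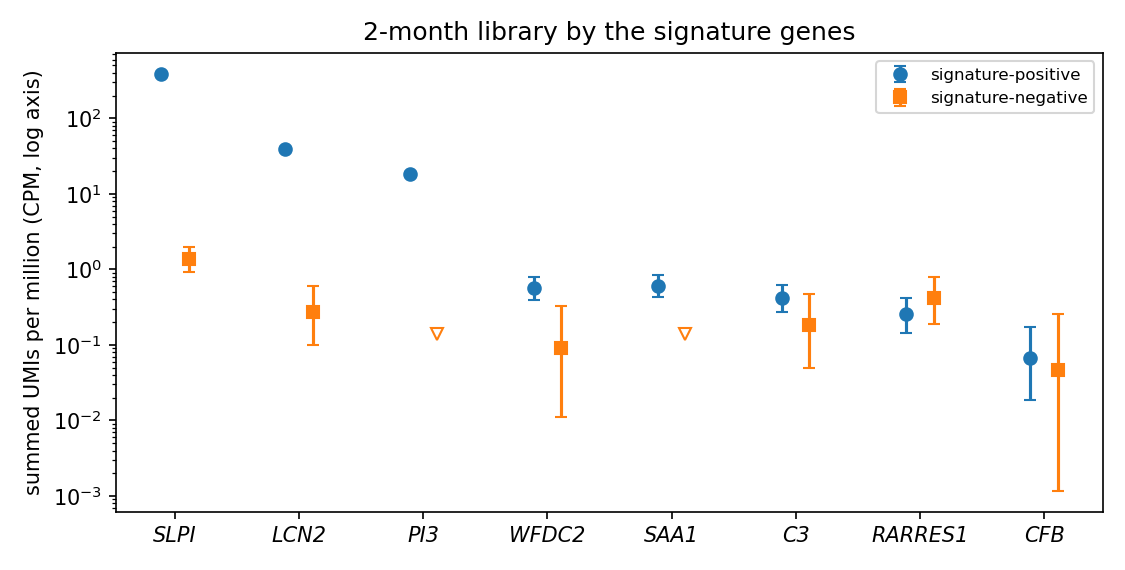
Level (CPM, log axis) of 8 members in the 2716 signature-positive and 606 signature-negative cells of the 2-month library, with exact 95% Poisson intervals; open triangles mark the level of 3 counts where a group of cells had 0. SLPI and LCN2 differ by more than 100-fold and PI3 is found on the positive side only, while RARRES1, CFB and C3 have overlapping intervals.

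Across all genes with at least 20 CPM in a late library, the mean of the members that reached 5 CPM was correlated over cells with each gene (SLPI, LCN2 and PI3 at 2 months, and SAA1 with them at 4 months), and 10 genes were among the top 20 in both libraries. S100A9 and S100A8, which form the antimicrobial calprotectin, had r of 0.55 and 0.46 at 2 months and 0.61 and 0.52 at 4 months. The median r of all genes was -0.05 over 4966 genes at 2 months and -0.01 over 4389 genes at 4 months. S100A7, or psoriasin, an antimicrobial protein of squamous epithelia, had r of 0.46 and 0.38. The epithelial transcription factor ELF3 had r of 0.59 and 0.43, the tight junction protein CLDN4 0.48 and 0.38, and the mucosal keratin KRT4 0.52 and 0.34. The other 4 were S100P, C9orf16, MAL2 and LMO7. All 10 genes had a lower r with PI3 alone than with SLPI alone in both libraries. For ELF3, CLDN4 and KRT4 the r with PI3 was 0.11, 0.10 and 0.14 at 2 months. At 4 months it was 0.14, 0.15 and 0.12. Their r with SLPI was 0.59, 0.50 and 0.54 at 2 months, and 0.46, 0.43 and 0.38 at 4 months. The calprotectin genes stayed below 0.1 CPM in the first 3 libraries, also at 6 h when SLPI had 8.27 CPM (3.78 without the 3 barcodes), with S100A9 at 409 CPM at 2 months and 523 at 4 months. ELF3 was not, with 10.6 CPM in parental cells, 214 (6 h), 247 (48 h), 159 (2 months) and 158 (4 months). The cells share a library, and the mean of the members had an r of -0.25 with log depth at 2 months and -0.01 at 4 months. Signature-positive and signature-negative cells were correlated together, and the part of this mixture was not tested.

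Several other secreted defence genes were low in culture and high in the late libraries. Of a list of 25 antimicrobial and mucosal secretions, 5 reached 5 CPM in the parental or 2-month library and 5 of these were higher at 2 months, and 7 of 7 were higher at 4 months, against backgrounds of 10.4% and 13.4% of all genes. All of these were below 1 CPM in parental cells, so that they passed the 5 CPM filter only through the late library and had to differ, and the counts are a description. At 6 h the 4 tested were LYZ, BPIFA1, MUC16 and MUC20, all higher for the same reason, and without the 3 barcodes they stood at 0.307, 0, 11.7 and 6.52 CPM. S100A7 had 0 CPM in parental cells and at 48 h, 957 at 2 months and 3109 at 4 months, the highest of the list. The beta-defensin DEFB1, which epithelia make without induction and which is named beside DEFB4A after its values were seen, had 1 UMI in the parental library and 0 at 48 h, and 95.6 CPM at 2 months and 179 at 4 months. The peptidoglycan recognition protein PGLYRP3 rose from 1.26 CPM at 2 months to 5.24 at 4 months.

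Of 16 other genes of WAP proteins, protease inhibitors and proteases, 3 of the 4 tested were higher at 2 months than in parental cells. At 4 months 6 of the 7 tested were higher, and the shares of all genes were 10.4% and 13.4%. The protease MMP9 was among the 6, with 0.288 CPM in parental cells, 48.4 at 48 h and 6.16 at 4 months. SERPINA1, SERPINA3, MMP9 and SPINK5 passed the 5 CPM filter at 4 months only through that library, as did SPINK5 at 2 months. They had to differ, and the counts are a description. SPINK5, an inhibitor of the kallikreins of squamous epithelia, had 1.04 CPM in parental cells, 8.05 (6 h), 8.70 (48 h), 177 (2 months) and 101 (4 months). It was thus highest at 2 months, unlike SLPI and PI3. SPINT1, an inhibitor of membrane serine proteases, was instead highest at 48 h, at 88.2 CPM, and stood at 33.01 at 2 months and 45.4 at 4 months. It had 4.57 CPM in parental cells, so it too passed the filter at 2 and 4 months only through the late library. It had to be higher, though not by 2-fold. SERPINA3 stayed below 0.4 CPM until 2 months and had 6.21 at 4 months. SERPINA1, or alpha-1-antitrypsin, had 0.0635 CPM in parental cells, 5.13 (6 h), 4.15 (48 h), 0.927 (2 months) and 7.17 (4 months). The elastase gene ELANE, whose product SLPI and PI3 inhibit, stayed below 1 CPM in all libraries, and WFDC5, WFDC12 and WFDC13 were at or near 0.

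In a complement list of 17 genes, regulators on the cell surface and the secreted CLU and CFD were far above C3 and CFB. At 4 months 4 of its 5 tested genes were higher than in parental cells and 0 lower, against 13.4% and 30.0% of all genes. CD55, which takes apart complement convertases, had 24.6 CPM in parental cells, 227 (6 h), 224 (48 h), 51.7 (2 months) and 84.6 (4 months). CD59, which blocks the membrane attack complex, had 75.4, 321, 316, 85.3 and 152 CPM in the same order. Both regulators were therefore highest at 6 h and 48 h, when SLPI was below 10 CPM. Clusterin (CLU), a secreted chaperone that inhibits the terminal complex, had 37.6 CPM in parental cells, 199 (6 h), 128 (48 h), 203 (2 months) and 146 (4 months), and CFD, or factor D, 26.4 CPM in parental cells and 13.01 at 4 months, and between 4 and 2 months 0 of the 5 tested genes moved 2-fold.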

How the data were processed

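The 5 libraries, labelled by timepoint, were analysed. The authors deposited raw counts of UMIs per gene and barcode, with lists of the gene and barcode names. The submitters' processing notes name Cell Ranger version 3 and GRCh38, and the matrix header names software version 3.0.2. Transcripts were captured at their 3′ end, so that counts were not scaled by length. The files hold called barcodes before the quality filter, which was applied as the study states it. Doublets were kept. Of the genes listed, 1 WAP gene was not found.

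Counts were summed over the cells of a library and divided by their total (CPM). Calls were a ratio of 2-fold with 1 CPM added, among genes with at least 5 CPM in either library. A count of 0 allowed up to 3 counts. Cells were thinned without replacement to 1000 or 3000 UMIs, the latter leaving out 157 parental cells, 123 (6 h), 76 (48 h), 88 (2 months) and 281 (4 months). Correlations used the natural log of 1 plus counts per 10000, and co-expression was given for genes with at least 20 positive cells. No test was made, since cells are not replicates. Sequences came from RefSeq tables and coordinates from GENCODE 44.

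The text names the 10 members, up to 3 genes with the largest log2 ratio per list and comparison among those past 2-fold, and the genes among the 20 best correlated in both late libraries; any other gene was named after its values were seen. The members and lists were chosen with earlier results of these data known. Alternatives were other added CPM values and minimum CPM, other scalings, equal weight of cells, other cell filters, and other depths. Computations ran in Python 3.11.15 with numpy 2.4.6, scipy 1.17.1, pandas 2.3.3 and Biopython 1.88, figures in matplotlib 3.10.9, and were tested on simulated data.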

Additional observations from a re-analysis of the deposited data

How the results depend on the processing

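Most counts and shares kept their value over the alternatives. Of the 82 values that answer a comparison, 66 kept it within 1.5 times or within the counting error, 16 did not, and none changed direction; for single genes 587 values were kept and 149 moved. The number of members 2-fold higher at 6 h than in parental cells was 1 in the report. It was 0 with the lung cells limited to signature-positive ones, while all parental cells were kept. It was also 0 without the barcodes with 10 or more UMIs of LYZ and BPIFA1 (an alternative chosen after seeing the data), and 0 with a minimum of 20 CPM. It was 2 with a minimum of 1 CPM, and 2 with equal weight of cells. Between 4 and 2 months it was 5 and not 3 with median-of-ratios size factors, which moved the median log2 ratio of all genes from -0.24 to 0.12 and added SLPI and WFDC2. The share of cells with SLPI at 2 months, 47.1%, was 19.6% after thinning to 1000 UMIs, 31.1% after thinning to 3000, 39.2% from 2 UMIs on and 33.7% without the quality filter. At 4 months, 59.5% became 21.8%, 36.1%, 48.1% and 49.3% in the same order. SLPI in LCN2-positive cells, 88.8% and 85.7%, was 95.3% at 2 months and 90.4% at 4 months without thinning. Thinning lowers and more UMIs raise a share by construction; the cause of the other changes was not tested. No paired analysis was possible because each timepoint is 1 library, and no replicate could be left out for the same reason. Mouse, injection, sort and library cannot be told apart from the timepoint, and the pooled mice of a library cannot be separated. Genes of a few UMIs, such as CFB and DEFB4A, are limited by depth.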

Other observations

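Several genes that act upstream of mucosal defence were highest at 48 h, when SLPI, LCN2 and PI3 were near 0. Of a list of 22 cytokines, receptors and adaptors that can induce such genes, 11 of the 14 tested were 2-fold or more higher at 48 h than in parental cells, where the background was 19.7%, and 7 of 12 were higher at 4 months, where it was 13.4%. MYD88 and IL1A at both times, and IL22RA1 at 48 h, passed the 5 CPM filter only through the lung library and so had to differ. IL1RAP and OSMR at both times, and IL6R at 48 h, also passed only through the lung library. These had to be higher, though not by 2-fold. MYD88, the adaptor of IL-1 and Toll-like receptors, had 0.869 CPM in parental cells, 13.2 (6 h), 27.6 (48 h), 6.998 (2 months) and 13.5 (4 months). The cytokine IL1A was also highest at 48 h, at 16.4 CPM, and stood at 0.940 at 2 months and 8.56 at 4 months. IL18 had 5.12 CPM in parental cells and between 52.7 and 129 in the lung libraries. IL1RAP, a subunit of the IL-1 receptor, rose late, with 2.28 CPM in parental cells, 8.33 (6 h), 8.79 (48 h), 16.6 (2 months) and 69.1 (4 months). A list of 21 factors held those of NF-kappaB, C/EBP and STAT with epithelial factors such as ELF3 and EHF. Of these, 14 of 16 tested were higher at 48 h and 13 of 19 at 4 months than in parental cells. The backgrounds were 19.7% and 13.4%. NFKB1, RELB, NFKBIZ and TNFAIP3 at both times, and CEBPA, EHF and GRHL1 at 4 months, passed the filter only through the lung library. These genes had to be higher, and the counts are a description. From 48 h to 2 months 10 of 19 were lower, where the background was 13.0%, and 4 were higher, where it was 12.2%. The 4 were CEBPA, CEBPD, EHF and GRHL1, with 3.21, 29.9, 1.80 and 3.16 CPM at 48 h and 9.21, 68.0, 11.5 and 9.63 at 2 months. All but CEBPD passed the filter only through the 2-month library and had to be higher. NFKBIA, the inhibitor that NF-kappaB induces, had 28.1 CPM in parental cells, 404 (6 h), 1255 (48 h), 69.5 (2 months) and 166 (4 months), so that it peaked in the library in which LCN2 had 1 UMI. RELB and TNFAIP3 had the same order, with 119 and 69.1 CPM at 48 h and 36.2 and 21.8 at 4 months.

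Among the listed acute phase proteins and receptors of the members, only SLC22A17 reached 5 CPM in a library. LRP2 came next in that list, at 4.90 CPM in parental cells. SLC22A17, a receptor for lipocalin 2, fell from 7.70 CPM in parental cells to 0.400 (6 h), 0.192 (48 h) and 1.10 (4 months), and had 3.41 at 2 months, and it was the 1 gene of 11 in the list of acute phase proteins and receptors that was tested against parental cells. In the retinoid list of 13 genes, 4 of 9 tested were higher at 4 months than in parental cells, against 13.4% of all genes. PLAAT4 was among the 4, and it passed the 5 CPM filter only through the 4-month library and so had to differ. The retinoic acid carrier CRABP2 had 24.2 CPM in parental cells, 231 at 2 months and 250 at 4 months. LXN had 5.41 CPM in parental cells, 2.76 at 2 months and below 0.1 at 48 h and 4 months.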
